A study of Homo sapiens with 6 samples.

Results

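The genes described here are 4 membrane-bound transcription factors of the CREB3 family (CREB3, CREB3L1, CREB3L2 and CREB3L4), the endoplasmic reticulum (ER) stress sensors ATF6 and ERN1, the stress transcription factors XBP1, ATF4 and DDIT3, and the ER chaperone HSPA5. They are the rows of the deposited count table whose symbol equals one of these names. All 10 were found among 26485 rows, and all 10 were among the 14405 genes that passed the filter on low counts. The names were chosen with measured differences between the clones known, so the differences of these 10 genes are given as a description, with no test.

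HuCCT1 is an established line of human cholangiocarcinoma, a cancer of the bile ducts. CRISPR/Cas9 was used to target AQP1, which encodes the water channel aquaporin-1, and polyadenylated RNA was sequenced from clone 1 (genotype WT) and from clone 22 (labelled AQP1 KO, here the knockout clone), with 3 libraries lettered a, b and c each. Both clones went through the CRISPR procedure by their titles and grew in the same DMEM-F12 medium with serum. Each genotype is 1 clone, so genotype and clone cannot be told apart, and the letters are not said to mark separate cultures, so a p-value here reflects library-to-library spread alone, which may be technical. Values per library are listed in the order a, b, c.

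Proteins bound for secretion or membranes fold in the ER with the help of chaperones such as HSPA5 (BiP). When unfolded proteins build up, sensors in its membrane start the unfolded protein response: ERN1 (IRE1) splices the XBP1 message, EIF2AK3 (PERK) slows translation while that of ATF4 rises, and ATF6 travels to the Golgi, where the proteases MBTPS1 and MBTPS2 cut its cytosolic transcription factor free. The CREB3 family is cut in the same way, and its members are known for widening the secretory pathway, CREB3L1 (OASIS) with collagen-producing cells and CREB3L2 with transport out of the ER. Counts per gene measure messages, so splicing of XBP1, cleavage of the precursors and phosphorylation of EIF2AK3 or eIF2 are not measured here.

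The libraries held 36925338 to 41724447 counts. The targeted gene was barely detected in either clone: AQP1 counts were 2, 8 and 10 for wild type and 10, 7 and 7 for knockout, a ratio of knockout to wild type of 1.2 (95% interval 0.662 to 2.39, counting error only), so its message does not separate the clones. Here and below, a gene rose or fell where its Benjamini-Hochberg (BH) adjusted p in edgeR's quasi-likelihood fit was below 0.05, as 37.1% (rose) and 37.2% (fell) of all 14405 tested genes did. Of 8 cholangiocyte markers tested, 6 fell and 1 rose, and their summed level was 3197 to 3279 CPM (counts per 1000000 counts of the library) in wild-type and 1903 to 1931 in knockout libraries. By group means KRT19 fell from 756 to 93.5 CPM and EPCAM from 484 to 40.7, while KRT7 fell less, from 1751 to 1613. The marker that rose was SPP1, from 0.291 to 11.4 CPM. Its counts were 12, 10 and 14 in wild type against 469, 504 and 381 in knockout. The wild-type counts alone fell just short of the filter, so SPP1 was testable only because of its knockout counts. For other cell types, 4 of 5 tested fibroblast markers rose (sum 15.9 to 18.1 against 35.5 to 38.4 CPM), 2 of 2 tested hepatocyte markers rose (sum 52.1 to 55.8 against 84.1 to 91.4) and 2 of 2 tested immune markers rose (sum 107 to 113 against 204 to 211). None of 3 tested endothelial markers passed (sum 2.09 to 2.47 against 2.15 to 3.06). The markers that rose were PDGFRA (0.712 to 6.66 CPM, group means), PDGFRB (0.653 to 2.72), LUM (5.33 to 17.4) and DCN (0.032 to 0.907) for fibroblasts, SERPINA1 (53.5 to 70.9) and FGB (0.040 to 15.6) for hepatocytes, and CD68 (109 to 207) and CD14 (0.509 to 1.46) for immune cells. FGB had 1, 2 and 2 counts in wild type against 593, 683 and 577 in knockout, and DCN 0, 0 and 4 against 32, 36 and 39. Both were testable because of their knockout counts alone, which set their direction in advance. Left out of the tested markers as too low were 4 of 6 hepatocyte, 3 of 8 fibroblast and 4 of 6 immune markers. COL1A1 was at about the same level in both clones (9.89 and 9.07). In contrast COL1A2, COL3A1 and THY1, ALB and TTR, and PTPRC of the same lists were at or near 0 in all libraries. These markers are named after their values were seen. The part of these shifts in the differences below was not tested.

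In the knockout clone CREB3L1 was far above, and the closely related CREB3L2 well below, the wild-type level. CREB3L1 (GRCh38, chr11:46277662-46321409) was at 2.64, 2.83 and 3.26 CPM in wild type and at 21.2, 23.1 and 24.6 CPM in knockout. All 3 knockout libraries lay far above all 3 wild-type libraries, and no library stood apart from its group. The counts behind these levels were 107, 117 and 136 in wild-type and 866, 946 and 909 in knockout libraries, and the log2 difference (knockout minus wild type, edgeR with TMM scaling) was 2.92 (SE 0.10), or 7.59-fold. As a place in the whole table, 572 of the tested genes (3.97%) had a log2 difference at least as high. In bulk RNA, more cells with the message and more message per cell cannot be told apart, and the same holds for each difference below.

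CREB3L2 (chr7:137874979-138002086) was at 153, 148 and 148 CPM in wild-type and 72.2, 76.3 and 70.7 CPM in knockout libraries. Its groups lay well apart, with a log2 difference of -1.09 (SE 0.034), and 1199 tested genes (8.32%) had one at least as low. CREB3L4 (chr1:153967487-153974359), a member best known from prostate epithelium, was at 7.92, 7.87 and 6.33 CPM in wild-type and 6.03, 5.11 and 5.50 CPM in knockout libraries. Its groups only just failed to overlap, since wild-type library c came close to knockout library a, and the log2 difference was -0.46 (SE 0.13). CREB3 (chr9:35732666-35736999), also called Luman, was at 48.5, 52.3 and 49.8 CPM in wild-type and 48.8, 48.3 and 47.1 CPM in knockout libraries, so its groups overlapped (log2 difference -0.12, SE 0.051). The remaining family member, CREB3L3, a liver and gut factor, had 4, 0 and 0 counts in wild-type and 5, 8 and 21 in knockout libraries. It was too low for the filter, and its ratio of summed counts per library total was 8.85 (95% interval 3.16 to 34.3, counting error only), with most knockout counts from library c.

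**Figure D1:**
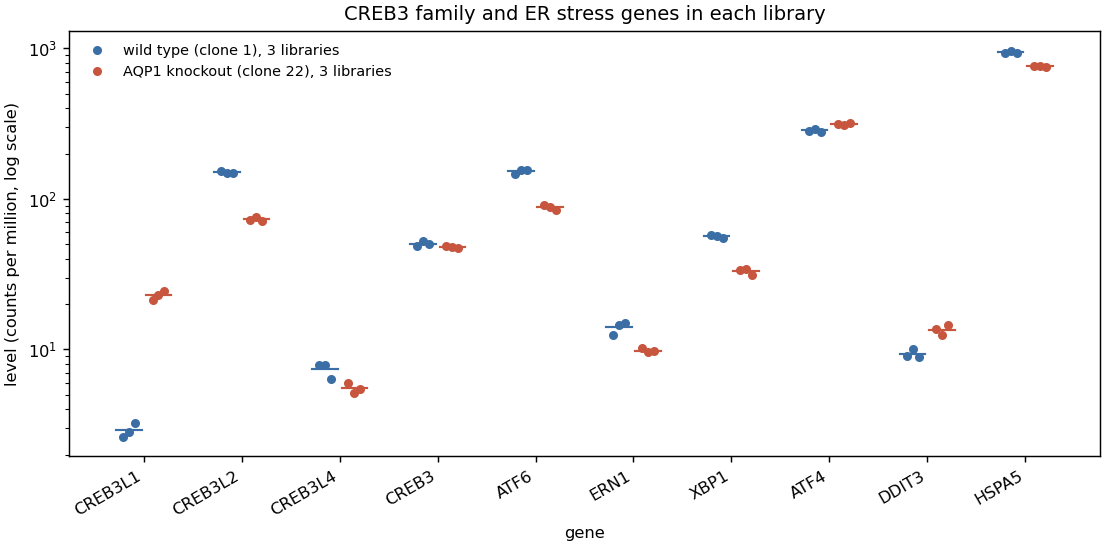
CPM of each of the 10 genes in each library on a log scale, wild type (clone 1) beside knockout (clone 22), with the group means as lines. The groups of CREB3 overlap, while those of the other 9 do not, and CREB3L1 goes from 2.64 to 3.26 CPM in wild type to 21.2 to 24.6 CPM in knockout.

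Per kilobase of exon, which allows levels of different genes to be compared, the make-up of the CREB3 family differed between the clones more than its sum. CREB3L1 was 2.17% ± 0.263 of the family's summed CPM per kb in wild-type libraries and 18.5% ± 1.36 in knockout libraries (SD, n = 3). CREB3L2 was 35.5% ± 1.17 and 18.6% ± 0.643, CREB3 54.9% ± 1.35 and 56.6% ± 1.07, and CREB3L4 7.45% ± 0.826 and 6.04% ± 0.528. CREB3 was thus the largest component in both clones, and CREB3L1 went from the smallest of these 4 to about the level of CREB3L2. The family's sum was 49.9 ± 0.982 CPM per kb in wild-type and 46.3 ± 0.245 in knockout libraries. CREB3L2 therefore stood at 18.5, 16.5 and 14.4 times the level of CREB3L1 per kb in the wild-type libraries, and at 1.08, 1.05 and 0.913 times in the knockout libraries. Wild-type and knockout ratios did not overlap, and with the length of the longest coding transcript in place of all exons the mean ratios were 18.8 ± 2.30 and 1.16 ± 0.102.

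**Figure D2:**
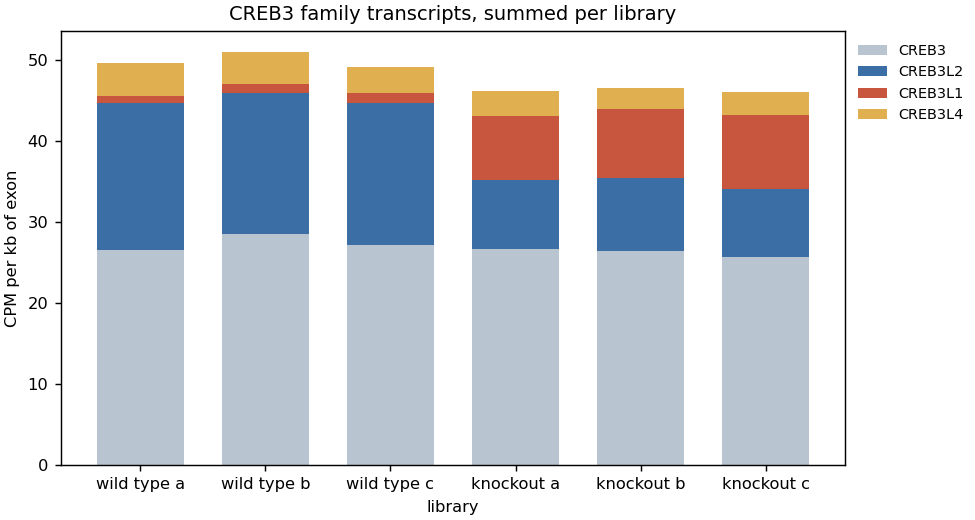
Level of CREB3, CREB3L2, CREB3L1 and CREB3L4 in CPM per kb of exon, as stacked bars for the 6 libraries. The CREB3L2 segment is much larger than the CREB3L1 segment in wild type, and the segments of both genes are of similar size in knockout.

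The 3 stress sensor and splicing-target genes ATF6, ERN1 and XBP1 were lower in every knockout library than in any wild-type library. ATF6 (chr1:161766320-161964070) was at 146, 156 and 154 CPM in wild-type and 90.8, 88.7 and 84.2 CPM in knockout libraries, a log2 difference of -0.85 (SE 0.035). ERN1 (chr17:64039142-64130144), the kinase and ribonuclease, was at 12.4, 14.6 and 15 CPM in wild-type and 10.2, 9.58 and 9.72 CPM in knockout libraries, a log2 difference of -0.57 (SE 0.091). XBP1 (chr22:28794560-28800569), the factor whose message ERN1 splices, was at 57.1, 56.9 and 54.9 CPM in wild-type and 33.7, 34.1 and 31.0 CPM in knockout libraries, a log2 difference of -0.83 (SE 0.056). The groups of all 3 genes lay apart, with ERN1 the closest to overlap. HSPA5 (chr9:125234853-125241343) was at 932, 966 and 936 CPM in wild-type and 765, 763 and 751 CPM in knockout libraries. Its groups were tight and apart, with a log2 difference of -0.37 (SE 0.024).

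ATF4 and DDIT3 were somewhat higher in the knockout clone. ATF4 (chr22:39520559-39522686) was at 284, 291 and 279 CPM in wild-type and 313, 311 and 318 CPM in knockout libraries, and although the groups did not overlap the log2 difference was only 0.086 (SE 0.025). DDIT3 (chr12:57516588-57520517), the factor CHOP linked with cell death under lasting stress, was at 9.0, 10.1 and 8.94 CPM in wild-type and 13.6, 12.4 and 14.6 CPM in knockout libraries, a log2 difference of 0.48 (SE 0.092). Its groups were apart, and its level was low in both.

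Of the 10 genes, 9 passed the threshold used for all genes (edgeR quasi-likelihood test, BH-adjusted p of 0.05), 3 higher and 6 lower. Since these genes were chosen on the same comparison, nothing is read from this count. Of all 14405 tested genes 74.4% passed, 37.1% higher and 37.2% lower. The groups of 9 of the 10 did not overlap, as for 77.3% of tested genes. CREB3L1 and CREB3L2 alone of the 10 differed 2-fold or more, as did 23.4% of tested genes. The median log2 difference of the 10 was -0.42, beside 0.0056 for all tested genes.

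On the scale of CPM per kb, HSPA5 was the most abundant of the 10 in both clones (241.7 in wild type, 194.4 in knockout), followed by ATF4 (113 and 125). In wild type the order went on with XBP1 (27.6) and CREB3 (27.4), whose ranges over libraries overlapped, then ATF6 (20.3), CREB3L2 (17.7), DDIT3 (7.14), CREB3L4 (3.72), ERN1 (1.43) and CREB3L1 (1.08). In knockout it went on with CREB3 (26.2), XBP1 (16.2), ATF6 (11.7), DDIT3 (10.3), then CREB3L2 (8.64) and CREB3L1 (8.55), whose ranges overlapped, CREB3L4 (2.80) and ERN1 (1.00). CREB3L1 was thus last in wild type and, by this length, level with CREB3L2 in knockout. The other neighbours in the order did not overlap. With the length of the longest coding transcript, the overlapping neighbours were ATF6 and CREB3L2 in wild type and DDIT3 and ATF6 in knockout instead. By that length CREB3L2 (9.86) lay above CREB3L1 (8.55) in knockout without overlap.

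Copies and overlaps limit some of these levels. CREB3 shares 7.59% of its exon bases with GBA2 and 3.33% with TLN1, CREB3L4 shares 4.80% with JTB and 5.10% with SLC39A1, and DDIT3 shares 4.74% with MARS, all on the opposite strand, which matters only if strand was not used in counting. DDIT3 also shares 8.03% with AC022506.1 on the same strand. The annotation holds 4 pseudogene copies of ATF4 and 1 of XBP1, and none of them is a row of the count table, so their reads may have been lost or assigned to the genes, and the levels of ATF4 and XBP1 are uncertain to that extent.

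The start regions of HSPA5 and XBP1 carry the sequence that ATF6 and XBP1 are known to bind at ER stress genes, CCAAT and CCACG with 9 bases between. The promoters below run from 200 bases before the start site (RefSeq, GRCh38.p14), 5′ to 3′ on the gene's strand, with a matched motif in capitals. They are chr9:125241344-125241543 (minus), chr22:28800570-28800769 (minus), chr7:138002087-138002286 (minus) and chr11:46294959-46295158 (plus) in turn. CREB3L2 is shown for its match to TGACGTCA, the cyclic AMP response element. CREB3L1, the gene with the largest difference, is shown for having no match in the window searched, which lies at an inner start.
HSPA5: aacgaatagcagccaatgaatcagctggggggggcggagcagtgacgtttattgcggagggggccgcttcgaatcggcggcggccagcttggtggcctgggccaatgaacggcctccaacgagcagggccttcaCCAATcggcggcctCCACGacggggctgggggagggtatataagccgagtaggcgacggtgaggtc
XBP1: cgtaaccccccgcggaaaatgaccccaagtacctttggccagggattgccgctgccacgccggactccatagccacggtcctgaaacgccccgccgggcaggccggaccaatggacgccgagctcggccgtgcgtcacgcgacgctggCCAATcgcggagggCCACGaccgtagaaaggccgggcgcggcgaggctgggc
CREB3L2: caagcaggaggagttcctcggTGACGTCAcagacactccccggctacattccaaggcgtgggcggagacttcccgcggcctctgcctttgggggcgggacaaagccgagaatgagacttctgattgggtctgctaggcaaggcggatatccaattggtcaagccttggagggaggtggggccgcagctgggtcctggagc
CREB3L1: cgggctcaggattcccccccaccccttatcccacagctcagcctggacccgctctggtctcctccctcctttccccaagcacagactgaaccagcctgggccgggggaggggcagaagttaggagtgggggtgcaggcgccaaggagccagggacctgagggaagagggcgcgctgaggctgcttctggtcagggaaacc

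In HSPA5 the CCAAT began 66 bases before the start, and in XBP1 52 bases before it. The search covered both strands of windows from 250 bases before to 50 after each start, 35116 windows over all genes and 14 over the 10 genes, and such a pair stood in 27 windows (0.0769%). TGACGTCA stood in 649 windows (1.85%) and among the 10 genes in CREB3L2 alone, 179 bases before the start. TGACGTGG, another element of ER stress factors, stood in 256 windows (0.729%) and in no searched window of the 10 genes. TGATGNAA, an ATF4 and CHOP type element, stood in 1270 windows (3.62%) and among the 10 in a window of an inner start of CREB3L2. The CREB3L1 window belongs to a start inside the annotated gene, downstream of its outer start, and holds none of the 4. The region at the outer start of CREB3L1 was not searched, so matches there are not known. A match describes letters and not binding.

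Of the other genes with the CCAAT and CCACG pair, 14 were tested: 3 rose, 8 fell and 3 did not pass, with a median log2 difference of -0.17. The shares of all tested genes were 37.1% and 37.2%. Those that rose were CANX (0.61), ERO1B (2.16) and SYNPO (1.96), and those that fell included the chaperones CALR (-0.32) and HSP90B1 (-0.22); CANX, CALR and SYNPO were picked after their values were seen. Several are also on the chaperone list below, so the counts overlap. For the other motifs the numbers that rose and fell were 58 and 56 of 133 (TGACGTGG), 133 and 168 of 404 (TGACGTCA), and 137 and 101 of 311 (TGATGNAA), with medians of 0.064, -0.051 and 0.13.

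Each log2 difference was set beside those of the gene's chromosomal surroundings. The other tested genes with starts within 5 Mb of CREB3L1 numbered 43, had a median log2 difference of 0.15, and 41 of them lay below CREB3L1. CREB3L2 had 42 such neighbours with a median of -0.38, and 6 of them lay below it. ATF6 had 64 with a median of -0.17 (13 below), and XBP1 had 74 with a median of -0.55 (16 below), so that the region of XBP1 was itself lower. The medians around ERN1, ATF4, CREB3L4 and CREB3 were -0.29, -0.34, -0.12 and -0.071, and those around HSPA5 and DDIT3 were 0.040 and 0.19. What part the regions have in these differences was not tested.

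**Figure D3:**
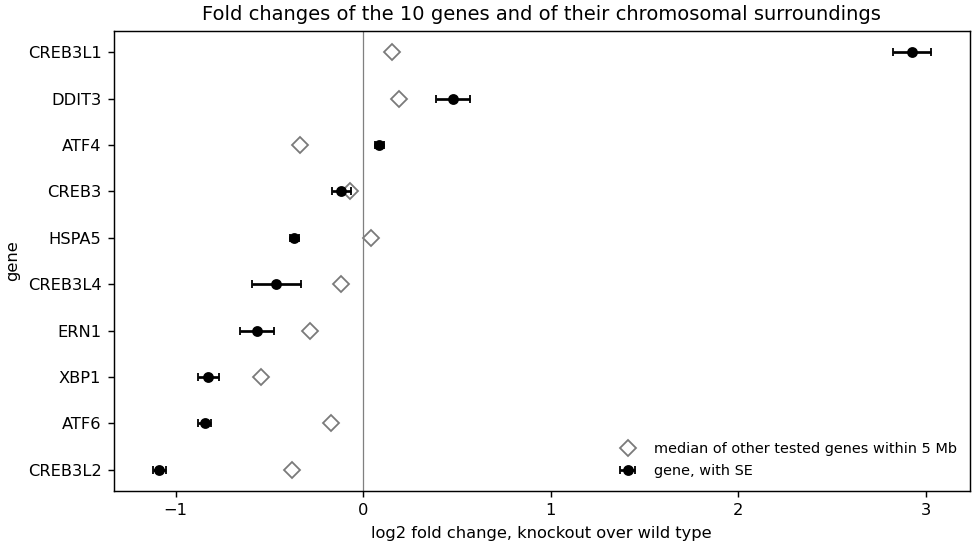
Log2 difference (knockout minus wild type) of each of the 10 genes with its SE, beside the median of the tested genes within 5 Mb. CREB3L1 at 2.92 lies far from its regional median of 0.15, and XBP1 at -0.83 lies nearer to its own of -0.55.

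The 5 tested genes whose pattern over the 6 libraries was closest to that of CREB3L1, by root mean square distance of centred log2 CPM, were NEK3 (0.0725), USP51 (0.0893), HAS3 (0.0997), ZNF781 (0.102) and PPAP2B (0.110). NEK3 is a kinase, and HAS3 makes hyaluronan. HAS3 was at 6.59 ± 0.881 CPM in wild-type and 56.8 ± 3.10 in knockout libraries (n = 3), and PPAP2B, a lipid phosphatase, at 28.0 ± 0.767 and 221 ± 6.20. USP51 and ZNF781 had no counts in wild-type libraries and 12 to 14 and 12 to 15 in knockout libraries. Both passed the filter only through knockout. Their fitted log2 differences, 6.72 (SE 1.17) and 6.79 (SE 1.16), were far from that of CREB3L1 (2.92). Their likeness rests on very low counts and on the prior count of 2 added in computing log2 CPM.

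Among the other stress sensors, their adaptors and the proteases that cut them, 2 of 15 tested genes rose, 8 fell and 5 did not pass, with a median log2 difference of -0.17 (DESeq2 called 4 higher and 8 lower). CREBRF, which binds CREB3, rose from 5.68 ± 0.937 to 16.2 ± 1.12 CPM (log2 1.45, SE 0.12). The proteases differed in direction: MBTPS1 rose (log2 0.32, SE 0.028) and MBTPS2 fell (-0.45, SE 0.055). MAP3K5 (ASK1), a kinase downstream of ERN1, fell most (log2 -1.50, SE 0.060), and RTCB, which joins the spliced XBP1 message, fell by 0.50 (SE 0.046) on the log2 scale. EIF2AK3 was at 24.2 ± 1.15 and 22.2 ± 0.762 CPM, and fell (log2 -0.17, edgeR BH-adjusted p = 0.0164). That call was lost with DESeq2 (0.0717), with scaling by library totals (0.0798), and without wild-type library b (0.0893), knockout library b (0.0647) or knockout library c (0.102). ATF6B did not pass (log2 0.48, edgeR BH-adjusted p = 0.0513), with 3.70, 3.87 and 3.71 CPM in wild-type and 4.41, 7.70 and 4.25 in knockout libraries. Knockout library b lay far above the other libraries, and ATF6B passed as higher without knockout library a (0.0248) or c (0.0117). It also passed with DESeq2 (0.0450), RLE factors (0.0444), library totals (0.0331), no filter (0.0233) and a minimum of 1 CPM in 3 libraries (0.0453), so its call depends on the setting. The gut form of ERN1, ERN2, had 3, 4 and 7 counts in wild-type and 0 in all knockout libraries, below the filter.

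Of 13 genes for eIF2 kinases, phosphatase adaptors and eIF2B, 3 rose, 7 fell and 3 did not pass (median log2 difference -0.12). EIF2B5, the catalytic subunit of eIF2B, fell from 88.8 ± 3.21 to 42.1 ± 2.45 CPM (log2 -1.13, SE 0.048), and PPP1R15B, an eIF2 phosphatase adaptor, fell by 0.94 (SE 0.041). EIF2S3 rose by 0.44 (SE 0.026), and the kinase EIF2AK2 by 0.11 (SE 0.032). Without wild-type library c only 1 of the 3 passed as higher, and EIF2AK2 was lost (edgeR BH-adjusted p = 0.0638).

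The ATF4 and CHOP target list, whose genes supply amino acids and stress factors, had 26 of 37 tested genes higher, 8 lower and 3 not passing, with a median log2 difference of 0.47. STC2, a secreted glycoprotein, rose from 0.549 ± 0.202 to 4.0 ± 0.895 CPM (log2 2.80, SE 0.29). PHGDH, the first enzyme of serine synthesis, rose from 11.8 ± 0.774 to 78.4 ± 2.12 CPM (log2 2.68, SE 0.062). The falls included SLC7A5, an amino acid transporter (log2 -1.22, SE 0.027), TRIB3 (-1.01, SE 0.048) and ATF3 (-0.84, SE 0.13). Other stress genes of the list rose, among them CHAC1 (2.30), NUPR1 (2.21) and GDF15 (1.55), while DDIT4 fell (-0.65). These 4 were named after their values were seen. ASNS, which makes asparagine, rose only by log2 0.16 (edgeR BH-adjusted p = 0.0318), and lost its call without wild-type library a (0.0694) or b (0.142), or without knockout library b (0.0579) or c (0.0837). TRIB3 and ATF3 thus moved against the list's median.

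Of 32 ER chaperones and folding enzymes, 20 fell, 10 rose and 2 did not pass (median log2 difference -0.28). SDF2L1, a cofactor of HSPA5 in the ER, went from 13 ± 0.502 to 5.35 ± 0.643 CPM (log2 -1.33, SE 0.11), the co-chaperone DNAJB11 from 157 ± 3.62 to 76.9 ± 1.06 (-1.09, SE 0.028) and DNAJB9 from 17.0 ± 0.752 to 9.32 ± 1.2 (-0.92, SE 0.095). Some other HSPA5 cofactors went the other way: DNAJC1 rose by log2 0.92 (SE 0.061), DNAJC10 by 0.64, SIL1 by 0.29 and DNAJC3 by 0.14. HYOU1, also on the list, fell (log2 -0.36, SE 0.027). HYOU1 and the cofactors that rose were named after their values were seen. HSP90B1 (GRP94) fell less, from 1162 ± 11.6 to 1032 ± 4.09 CPM (log2 -0.22, SE 0.022). ERO1B, an oxidase for disulfide bonds, rose by 2.16 (SE 0.20) from 1.79 ± 0.539 CPM, and UGGT2, a folding checkpoint glucosyltransferase, by 1.18 (SE 0.058). The other ERO1 gene, ERO1A, fell from 472 to 361 CPM (log2 -0.44, SE 0.027). The other UGGT gene, UGGT1, fell from 178 to 132 CPM (-0.49, SE 0.029). ERO1A and UGGT1 were named after their values were seen.

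ER-associated degradation, which removes misfolded proteins, was split: 12 of 23 tested genes rose, 10 fell and 1 did not pass (median log2 difference 0.097). HERPUD1 rose from 43.2 ± 0.988 to 77.4 ± 3.10 CPM (log2 0.79, SE 0.046) and MAN1B1, a mannosidase, by 0.51 (SE 0.046). UFD1L and NPLOC4, partners that help pull proteins out of the membrane, fell by 0.77 (SE 0.042) and 0.44 (SE 0.025).

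Among 42 genes of COPII and COPI coats and early secretory transport, 15 rose, 19 fell and 8 did not pass (median log2 difference -0.023). Scaling by library totals gave 20 higher and 16 lower. SEC23A, a COPII subunit known as a target of CREB3L2, rose from 88.4 ± 3.35 to 165 ± 4.88 CPM (log2 0.84, SE 0.034), while CREB3L2 itself was lower. The other SEC23 gene, SEC23B, fell from 166 ± 1.81 to 97.6 ± 1.15 CPM (log2 -0.82, SE 0.025), named after its values were seen. SEC24D rose by 0.15 (SE 0.042) and SEC31B by 1.97 (SE 0.22). MIA2, a cargo receptor gene, fell by 1.04 (SE 0.13) and SEC16B by 0.92 (SE 0.18).

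Of 12 tested genes for procollagen I and its modification, 9 rose, 2 fell and 1 did not pass (median log2 difference 0.52). P3H1, a collagen prolyl hydroxylase, rose from 13.6 ± 1.13 to 39.3 ± 1.30 CPM (log2 1.48, SE 0.066), and P4HA2 by 0.92 (SE 0.062). PLOD3, a lysyl hydroxylase, fell by 0.81 (SE 0.052) and P4HA1 by 0.23 (SE 0.037). The collagen chain COL1A1, known as a CREB3L1 target in bone, was at 9.89 ± 0.589 and 9.07 ± 2.10 CPM and did not pass (log2 -0.18, edgeR BH-adjusted p = 0.248), though without knockout library c it passed as lower (-0.36, adjusted p = 0.00974). COL1A2 had 2, 0 and 4 counts in wild-type and none in knockout libraries, below the filter. Of the 8 fibroblast markers 4 rose alongside, among them DCN, whose direction was set in advance by its near absence in wild type. COL1A1 did not pass, and COL1A2, COL3A1 and THY1 were near 0 and below the filter.

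Lists set up for comparison moved as follows. Of 12 other CREB and ATF factors and coactivators, 6 rose and 4 fell (median log2 difference 0.18), led by CRTC1 (1.87, SE 0.075) and ATF2 (0.76, SE 0.035), with CRTC2 at -0.50 (SE 0.058) and NFIL3 at -0.14 (SE 0.057). NFIL3 passed (edgeR BH-adjusted p = 0.0372) but lost its call without any of 5 libraries (wild-type library a or c, or any knockout library; 0.0633 to 0.125). The call of NFIL3 was also lost with RLE factors (0.0597), no filter (0.0714), DESeq2 (0.165) and library totals (0.175). The number of this list lower was 1 without knockout library a and, with scaling by library totals, 1 beside 7 higher. Cytosolic heat shock genes numbered 4 higher and 9 lower of 15 (median -0.25; 5 and 7 with library totals), with HSF1 at 0.64, HSPH1 at 0.39, HSPA4L at -0.82 and HSPA8 at -0.73. Mitochondrial chaperones and proteases numbered 3 higher and 5 lower of 10 (median -0.085; 5 and 5 with library totals), with SPG7 at 0.61, CLPX at 0.48, HSPE1 at -0.30 and CLPP at -0.27. Immediate early genes, which react to handling, numbered 3 higher and 1 lower of 7 (median 0.060), with FOS at 1.01, EGR1 at 0.63 and IER2 at -0.44.

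Genes of secretory epithelium had the lowest median of the 12 lists: 7 of 8 tested fell and 1 rose, at -1.44 on the log2 scale. The other 4 of the list, AGR3, TFF1, TFF2 and TFF3, were at or near 0 in all libraries and below the filter. PIGR, the receptor that carries antibodies across epithelium, was at 1.81 ± 0.300 and 0.0816 ± 0.0748 CPM (log2 -4.44, SE 0.51). With 6, 4 and 0 counts in knockout libraries, PIGR passed the filter only through wild type, so its direction was set by it. EHF, an epithelial transcription factor, fell from 348 ± 3.74 to 53.1 ± 0.610 CPM (log2 -2.77, SE 0.026). FOXA2, a factor of endoderm, rose by 1.16 (SE 0.061).

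**Figure D4:**
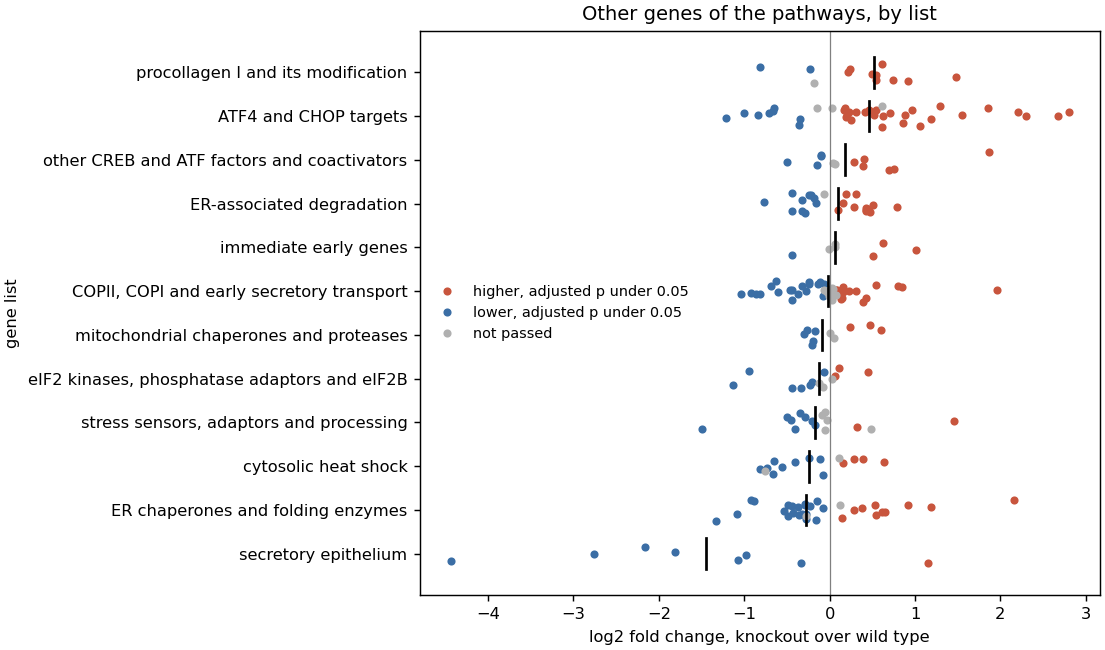
Log2 difference (knockout minus wild type) of every tested gene in the 12 lists, by list, with the list's median as a line and each gene marked as higher, lower or not passing at an edgeR BH-adjusted p of 0.05. The medians run from -1.44 for secretory epithelium to 0.52 for procollagen, and the ATF4 and CHOP targets (0.47) and ER chaperones (-0.28) lie on opposite sides of 0.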

How the data were processed

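RNA was sequenced from 6 HuCCT1 libraries prepared with a strand-preserving Illumina kit, per the labels' protocols. The authors deposited read counts per gene symbol, whole numbers with no normalization. The submitters' processing notes name build hg38 and the tools HISAT2, Trimmomatic 0.33, FastQC and edgeR. Not given in the sources used here are the program that counted reads, whether it used strand, and its gene annotation. Libraries were grouped by the genotype and clone labels. The test over all 6 libraries was edgeR's quasi-likelihood test without covariates (version 4.0.16, R 4.3.3), on genes kept by filterByExpr, with TMM factors and BH adjustment at 0.05, after the steps were tested on simulated data. CPM uses library totals, and log2 differences use TMM, whose factors were 0.980 to 1.024. A count of 3 equals 0.0719 to 0.0812 CPM. Within groups, libraries differed by more than sampling noise (chi-square per degree of freedom 4.18 to 7.60). Lengths came from GENCODE 29, and positions and promoters from RefSeq. Of the 26485 rows, 23749 matched a current RefSeq symbol, 1539 an older one and 1197 none. All 240 list genes were found, 10 of them under an older symbol.

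The 10 genes and all lists were chosen with earlier results of these data known. Beyond them, the text names listed pathway genes, the 2 largest rises and falls that passed in each list, and the 5 genes most like CREB3L1. Alternatives were RLE factors, library totals, no filter, at least 1 CPM in 3 libraries, DESeq2 1.42.0, limma-voom 3.58.1, the letters as a block, an adjusted p of 0.01 and each library left out.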

Additional observations from a re-analysis of the deposited data

How the results depend on the processing

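The 14 alternatives reversed no value of the 10 genes or of the genes named by rule. CREB3L1 kept a log2 difference of 2.85 to 3.01. Scaling by library totals moved the log2 differences of CREB3 to -0.062, CREB3L2 to -1.03, ATF4 to 0.14 and HSPA5 to -0.31. It also gave 1 other CREB or ATF factor lower and 5 mitochondrial genes higher. With no filter, and with DESeq2, 4 stress sensor genes were higher in place of 2. At an adjusted p of 0.01, 2 other CREB or ATF factors were lower in place of 4. Leaving out each library in turn gave -0.85 to -0.76 for XBP1 and -0.38 to -0.34 for HSPA5, with the value nearest 0 without knockout library c in both. It gave 1 to 3 eIF2 genes higher and 1 to 4 other CREB or ATF factors lower. The cause of these moves was not tested.

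Libraries that share a letter had low correlations of their deviations from the group means (0.0577, -0.0195 and 0.0082 for a, b and c). The value for a was the highest of all pairs, while b and c did not correlate best with their own letter. With 3 libraries per group this cannot show whether a letter marks a shared batch, and the labels do not say so. The main fit used no block. With the letters as a replicate block, 5284 genes were higher and 5315 lower, beside 5347 and 5364 without it. Among the genes named by rule, ATF6B passed as higher under that block (edgeR BH-adjusted p = 0.0478) and NFIL3 no longer passed (0.0543), and no other of them changed its call. Depth was ample for the 10 genes, of which CREB3L1 in wild type had the fewest counts (107), but limits AQP1, CREB3L3, ERN2 and COL1A2.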
